A study of Mus musculus with 6 samples.

Results

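The genes described here encode proteins that neutrophils store in their granules or cytosol, in an early set and a late set that follow the order in which a maturing neutrophil makes them. The early set holds Elane, Mpo, Prtn3 and Ctsg, and the late set Ngp, Camp, Ltf, Lcn2, S100a8 and S100a9. These 10 genes, of 25576 listed in at least 1 library, were chosen by their high FPKM in a single control library, control replicate 2, so their level in that library is a description and not a finding. Values come from bulk-seq of whole spinal cord in the Taiwanese mouse model of spinal muscular atrophy (SMA) on the FVB strain at postnatal day 4, from ribosomal RNA-depleted total RNA. The 3 SMA libraries have the genotype mSmn-/-, hSMN22tg/0, and the 3 control libraries mSmn+/-, hSMN22tg/0. Both groups therefore carry the human SMN2 transgene, and the controls carry a single mouse Smn allele. The study's methods describe triplicates with n = 1 per group, so p-values here measure the spread between libraries, which may be technical.

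Neutrophils develop in haematopoietic tissue through ordered stages. Promyelocytes fill azurophil granules with serine proteases and myeloperoxidase, myelocytes and metamyelocytes then fill specific granules with lactoferrin, lipocalin and cathelicidin, and gelatinase granules follow. Transcription of the azurophil genes largely stops before the specific granule genes are switched on, so within the neutrophil lineage each transcript marks a stage. Neutrophils are rare in the healthy central nervous system parenchyma.

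The knockout itself was checked first. Smn1 (ENSMUSG00000021645) was at 10.4, 8.64 and 11.9 FPKM in control replicates 1, 2 and 3, and at 8.48, 9.30 and 11.1 FPKM in SMA replicates 1, 2 and 3. FPKM is the number of sequenced fragments of a gene scaled to its exon length and to the size of the library. The groups overlapped, so Smn1 gives the labels no check, and groups below are the libraries labelled SMA and control.

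All 10 genes had their highest value in control replicate 2, and the late genes stood far above the early genes there. S100a8 was at 205.4 FPKM in that library and Ctsg at 2.92 FPKM, the ends of the range. The lowest late gene was Camp at 26.2 FPKM, and the highest early gene was Mpo at 10.4 FPKM. The order from high to low was S100a8, S100a9, Lcn2, Ngp, Ltf, Camp, Mpo, Elane, Prtn3 and Ctsg. In a single library these neighbours have no replicate error. In the other 5 libraries the sets were not separated in this way: Prtn3 lay above Ngp, Ltf and Lcn2 in each of them. Prtn3 has an uncertain level, as described below. Without Prtn3, every late gene lay above every early gene in control replicate 3 and SMA replicate 1 too. There the highest early gene was Mpo, at 0.103 and 0.134 FPKM. The lowest late genes there were Lcn2 at 0.235 FPKM and Camp at 0.255 FPKM. In control replicate 1 and SMA replicates 2 and 3, Mpo lay above Ngp. In bulk tissue, more cells of a type and more RNA per cell cannot be told apart.

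**Figure D1:**
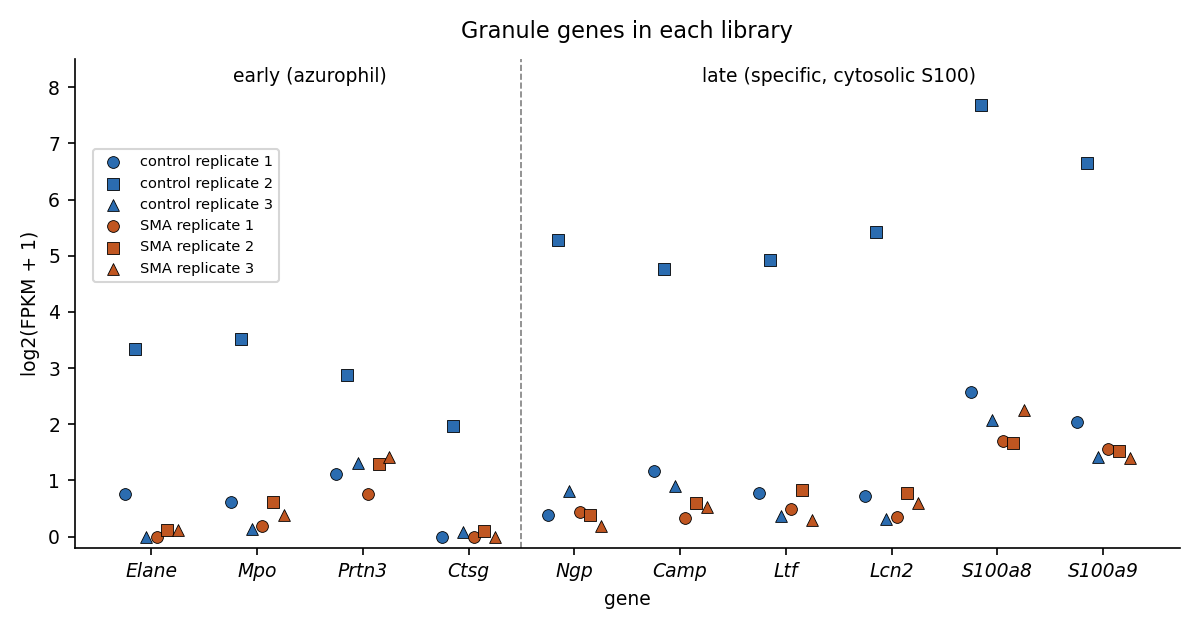
Level of each granule gene in each library as log2(FPKM + 1), with the early genes left of the dashed line and the late genes right of it. Each point is a library, coloured by group (blue control, orange SMA) and shaped by replicate. Control replicate 2 is the top point for all 10 genes, from Ctsg at 2.92 FPKM to S100a8 at 205.4 FPKM.

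Among the early genes, Elane (ENSMUSG00000020125), neutrophil elastase, was at 0.700 and 9.18 FPKM in control replicates 1 and 2, and control replicate 3 did not list it. In the SMA libraries Elane was not listed in replicate 1, at 0.0902 FPKM in replicate 2 and at 0.0912 in replicate 3. Control replicate 2 therefore stood 13.1 times above the highest other library, and the remaining libraries of both groups were near the lower end of the scale. Mpo (ENSMUSG00000009350), the peroxidase that makes hypochlorous acid, was at 0.533, 10.4 and 0.103 FPKM in control replicates 1, 2 and 3. Its SMA libraries were at 0.134, 0.539 and 0.311 FPKM, and control replicate 2 was 19.3 times the highest of the others.

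Ctsg (ENSMUSG00000040314), cathepsin G, a serine protease of the azurophil granule, was listed in only 3 libraries. These were control replicates 2 and 3, at 2.92 and 0.0612 FPKM, and SMA replicate 2, at 0.0651 FPKM. Prtn3 (ENSMUSG00000057729), proteinase 3, behaved unlike the other early genes. It was at 1.16, 6.35 and 1.49 FPKM in control replicates 1, 2 and 3 and at 0.683, 1.45 and 1.68 FPKM in SMA replicates 1, 2 and 3. Control replicate 2 was only 3.78 times the highest other library for Prtn3, the smallest ratio of the 10 genes. The files give Prtn3 a span on chromosome 10, from 79851381 to 79883174 (GRCm38), that they also give to Ptbp1, Plppr3, E130317F20Rik and Gm17134, while GENCODE places Prtn3 at 79874476 to 79883174. Reads near its edges may be shared between these genes, and its level is uncertain for that reason. Ptbp1, a splicing regulator expressed in many tissues, was at 47.5 FPKM in control replicate 2 and between 16.3 and 23.0 FPKM elsewhere, whereas Plppr3, a neuronal gene, was lowest in control replicate 2 at 43.3 FPKM.

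The specific granule genes of the late set were at similar levels to each other. Lcn2 (ENSMUSG00000026822), the siderophore-binding lipocalin, was at 0.645, 41.7 and 0.235 FPKM in control replicates 1, 2 and 3 and at 0.266, 0.719 and 0.515 FPKM in SMA replicates 1, 2 and 3. Its ratio of control replicate 2 to the highest other library, 58.0, was the largest of the 10. Ngp (ENSMUSG00000032484), neutrophilic granule protein, was at 0.298, 37.9 and 0.763 FPKM in the controls and at 0.349, 0.309 and 0.134 FPKM in the SMA libraries. Ltf (ENSMUSG00000032496), the iron-binding lactoferrin, was at 0.715, 29.5 and 0.288 FPKM in the controls and at 0.409, 0.788 and 0.234 FPKM in the SMA libraries. For these genes the remaining libraries of both groups overlapped. Camp (ENSMUSG00000038357), the precursor of the cathelicidin antimicrobial peptide, was at 1.24, 26.2 and 0.866 FPKM in the controls and at 0.255, 0.517 and 0.449 FPKM in the SMA libraries. Its ratio, 21.1, was the smallest of the late set.

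S100a8 and S100a9 encode the subunits of calprotectin, a calcium-binding and zinc-binding dimer of the neutrophil cytosol that monocytes also make. S100a8 (ENSMUSG00000056054) was at 4.99, 205.4 and 3.22 FPKM in control replicates 1, 2 and 3 and at 2.25, 2.17 and 3.75 FPKM in the SMA libraries. S100a9 (ENSMUSG00000056071) was at 3.10, 99.5 and 1.66 FPKM in the controls and at 1.96, 1.88 and 1.65 FPKM in the SMA libraries. Ordered by FPKM, S100a8 was gene number 153 of 22161 listed in control replicate 2 and between number 10060 and number 12721 in the other libraries. The ratio of S100a8 to S100a9 was 2.06 in control replicate 2 and between 1.15 and 2.27 elsewhere, so the proportion of the pair in control replicate 2 lay inside the range of the others.

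Summed over the 4 early genes, control replicate 2 reached 28.8 FPKM and the others lay between 0.818 and 2.40 FPKM. Summed over the 6 late genes, it reached 440.2 FPKM and the others lay between 5.49 and 11.0 FPKM. The late sum was 15.3 times the early sum in control replicate 2 and from 2.98 to 6.71 times elsewhere. The early genes thus made up 6.15% of the granule gene total in control replicate 2 and from 13.0% to 25.1% in the other libraries. In these sums the shift depended on Prtn3. Without it the late sum was 19.6 times the early sum in control replicate 2, inside the range of 8.91 to 42.8 in the others. The upper end of that range is uncertain. With unlisted genes set to 0, the early sum without Prtn3 was only 0.165 FPKM in control replicate 3 and 0.134 FPKM in SMA replicate 1.

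**Figure D2:**
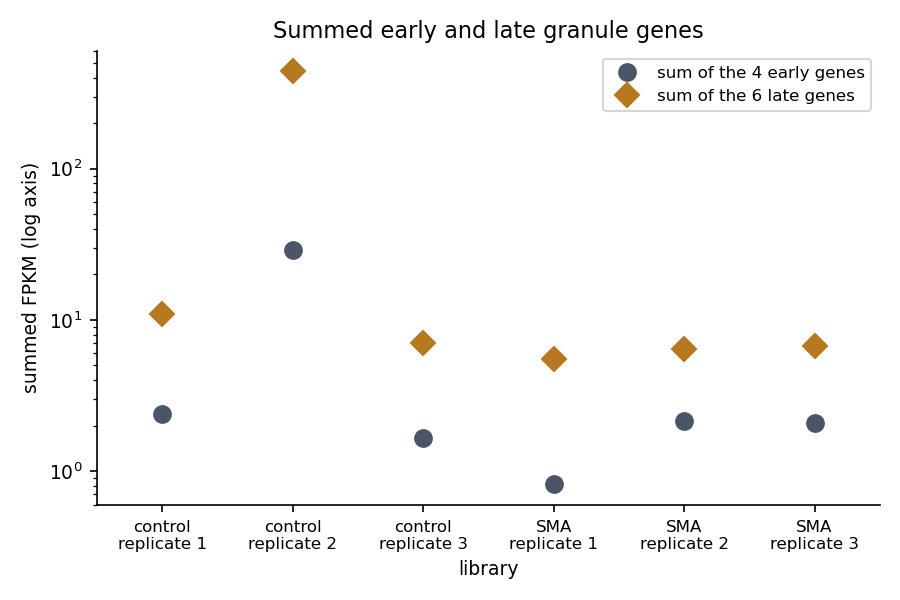
Summed FPKM of the 4 early genes (circles) and the 6 late genes (diamonds) in each library, on a log axis. In control replicate 2 the sums are 28.8 and 440.2 FPKM, and in the other 5 libraries the early sum stays at or under 2.40 FPKM and the late sum at or under 11.0 FPKM.

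On the log2(FPKM + 1) scale, which compresses differences at low FPKM, the mean of the early genes in control replicate 2 was 2.47 above the mean of the other 5 libraries, and the mean of the late genes 4.81 above it. The late genes exceeded the early genes by 2.33 more in control replicate 2 than elsewhere. With a pseudocount of 0.1 that difference was 1.58. Leaving out Prtn3 at the pseudocount of 1 gave 2.07, so at that pseudocount the difference did not rest on Prtn3 alone. Both changes together were not tried. As ratios to the highest other library, the sets overlapped: the early genes ran from 3.78 (Prtn3) to 44.8 (Ctsg) and the late genes from 21.1 (Camp) to 58.0 (Lcn2). A higher late than early level in control replicate 2 therefore held for FPKM, while the fold over the other libraries did not separate the sets. Of the 17088 genes that averaged 0.5 FPKM or more in the 6 libraries, 8.23% were more than 2 times their highest other library in control replicate 2, as were all 10 granule genes by the way they were chosen.

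The bases upstream of these genes are shown because the genes were high together in the same library. Windows of 250 bases before the RefSeq start (GRCm38.p6) matched all 10 genes. On either strand, GAGGAA, a core bound by PU.1 and other ETS factors, occurred before 4 of 4 early and 3 of 6 late genes, and before 23.3% of all 32851 promoters. TTNNGNAA, a C/EBP-type motif, occurred before 0 of 4 early and 5 of 6 late genes, and before 36.8% of all promoters. AACNG, a MYB core, occurred before all 10 genes and 74.2% of promoters, and TATAAA before Ctsg, S100a8 and 12.4% of promoters. The letters of GAGGAA and TTNNGNAA can overlap, but none of the printed matches do. These matches are descriptions of letters in a window and not binding sites. The bases directly before the outermost annotated transcript start within that window follow, 5′ to 3′, at most 150 each, for the 3 early and 5 late genes whose window holds any. They lie at chr10:79886097-79886246, + strand for Elane, chr11:87793534-87793580, + strand for Mpo, chr14:56102575-56102724, - strand for Ctsg, chr9:110419597-110419746, + strand for Ngp, chr9:109849618-109849706, - strand for Camp, chr9:111019121-111019270, + strand for Ltf, chr3:90668828-90668977, + strand for S100a8 and chr3:90695722-90695871, - strand for S100a9. Capitals of 6 letters mark GAGGAA or its reverse complement, and capitals of 8 letters mark TTNNGNAA or its reverse complement. Mpo shows GAGGAA at 2 places in this short stretch, Ngp the C/EBP-type motif at 2 places, and Ltf and S100a8 each carry both motifs, while the stretches of Ctsg and Camp hold neither.
Elane: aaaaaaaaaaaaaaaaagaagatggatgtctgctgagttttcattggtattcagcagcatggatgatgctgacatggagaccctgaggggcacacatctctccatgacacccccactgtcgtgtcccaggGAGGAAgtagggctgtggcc
Mpo: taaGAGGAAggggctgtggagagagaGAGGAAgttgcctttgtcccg
Ctsg: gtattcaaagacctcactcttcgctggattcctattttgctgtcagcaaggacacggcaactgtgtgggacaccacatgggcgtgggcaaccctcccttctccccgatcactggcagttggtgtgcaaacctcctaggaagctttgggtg
Ngp: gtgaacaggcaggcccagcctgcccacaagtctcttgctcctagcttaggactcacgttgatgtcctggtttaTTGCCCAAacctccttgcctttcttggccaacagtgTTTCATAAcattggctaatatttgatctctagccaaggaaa
Camp: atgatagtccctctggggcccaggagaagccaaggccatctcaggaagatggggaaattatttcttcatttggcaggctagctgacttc
Ltf: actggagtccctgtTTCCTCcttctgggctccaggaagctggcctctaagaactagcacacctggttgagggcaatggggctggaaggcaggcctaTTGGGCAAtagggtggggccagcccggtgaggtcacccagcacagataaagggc
S100a8: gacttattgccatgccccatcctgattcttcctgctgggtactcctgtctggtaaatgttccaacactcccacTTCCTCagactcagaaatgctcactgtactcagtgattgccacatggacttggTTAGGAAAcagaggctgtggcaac
S100a9: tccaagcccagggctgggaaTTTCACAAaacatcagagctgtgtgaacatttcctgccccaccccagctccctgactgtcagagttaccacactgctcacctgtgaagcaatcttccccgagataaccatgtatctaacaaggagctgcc

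Several of the genes are neighbours in the genome. Prtn3 and Elane lie 3072 bases apart on chromosome 10, S100a8 and S100a9 lie 22596 bases apart on chromosome 3, and Camp, Ngp and Ltf are all on chromosome 9. Other neighbours did not share the pattern throughout. Cfd, next to Elane, was listed only in SMA replicate 2, at 0.597 FPKM. Lpo, a peroxidase gene 2014 bases from Mpo, was lowest in control replicate 2, at 0.156 FPKM. Beside Ngp, Ptpn23 was at 9.62 FPKM in control replicate 2 and between 8.97 and 11.8 elsewhere, and Klhl18 was lowest in control replicate 2, at 11.0 FPKM against 13.9 to 15.8. Mcpt8, a basophil protease gene beside Ctsg, was at 0.555 FPKM in control replicate 2 and otherwise listed only in SMA replicate 2, at 0.0735 FPKM. Ccrl2, beside Ltf, was at 1.54 FPKM in control replicate 2 and at most 0.512 FPKM elsewhere.

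Other neutrophil genes were examined by stage in the same libraries, as lists of textbook markers. Over all 25576 genes, 23.8% were highest in control replicate 2, and of the 25081 genes listed in another library, 8.42% were more than 2 times the highest of them there. Of 10 further azurophil and promyelocyte genes, 10 were highest in control replicate 2, and of the 9 listed in another library, 5 were more than 2 times the highest other library. Among the most abundant, Plac8 was at 9.79 FPKM there against 0 to 1.71 elsewhere, and Ctsc, the protease that activates the granule serine proteases, was at 10.8 against 3.55 to 6.99 FPKM. Srgn, the proteoglycan that packs granule proteins, was at 5.52 against 0.921 to 2.06 FPKM. Calr, an endoplasmic reticulum chaperone that most cells express, was nearly even at 121.7 against 107.6 to 114.3 FPKM. Nkg7 was listed in control replicate 2 alone, at 0.418 FPKM, and the promyelocyte protease gene Prss57 reached only 0.216 FPKM.

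Further specific granule and myelocyte genes reached larger ratios. Of 10, 9 were highest in control replicate 2. Of the 9 listed in another library, 8 were more than 2 times the highest other library and 4 more than 10 times. Chil3, a chitinase-like protein, was at 10.3 FPKM against 0 to 0.187 elsewhere, and Olfm4, a specific granule glycoprotein, at 12.2 against 0.594 to 0.817 FPKM. Pglyrp1, a peptidoglycan recognition protein that endothelial cells of the central nervous system also express, was at 11.3 against 2.96 to 4.91 FPKM, and Ifitm6 at 6.27 against 0.249 to 1.22 FPKM. Wfdc21 was listed in control replicate 2 alone, at 0.348 FPKM, and Fcnb was at 2.24 FPKM there and not listed in any SMA library.

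Genes of gelatinase granules and mature neutrophils were mixed. Of 16, 13 were highest in control replicate 2, and of the 15 listed in another library, 9 were more than 2 times the highest other library. Stfa2l1, a stefin of mature neutrophils, was at 35.6 FPKM against 0.139 to 0.983 elsewhere, and Retnlg, a resistin-like protein, at 11.6 against 0.444 to 0.947 FPKM. G0s2, a lipase inhibitor, was at 13.6 against 2.22 to 4.77 FPKM, and Mmp9, the gelatinase itself, at 3.88 against 1.63 to 2.53 FPKM. By contrast, Trem1 and Clec4d were at most 0.225 FPKM in any library, and Mmp25 was highest in control replicate 1. Clec4e was listed in control replicate 2 alone, at 0.212 FPKM.

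Of 12 regulators of granulopoiesis, 11 were highest in control replicate 2 and 7 were more than 2 times the highest other library. Cebpa, which hepatocytes also express, was at 15.6 FPKM against 0.724 to 1.51 elsewhere, and Cebpe, the factor of the myelocyte stage, was at 1.44 FPKM, at most 0.162 elsewhere and not listed in control replicate 3 or SMA replicate 1. Gfi1, a repressor required for granulocyte fate, was at 0.619 FPKM and at most 0.143 elsewhere. Nearer to the other libraries were Cebpd, at 3.68 against 1.12 to 2.78 FPKM, and Cebpb, at 2.70 against 0.454 to 2.42 FPKM. Irf8, a monocyte factor that microglia also express, was at 3.91 against 1.44 to 2.30 FPKM, and Klf5 was lowest in control replicate 2, at 0.919 FPKM. All 6 NADPH oxidase genes were highest in control replicate 2 and 5 were more than 2 times the highest other library. Cyba was at 11.1 FPKM against 2.85 to 4.48, Rac2 at 5.41 against 0.532 to 1.23, Ncf1 at 4.71 against 1.06 to 1.63 and Ncf4 at 4.96 against 0.123 to 1.14 FPKM.

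**Figure D3:**
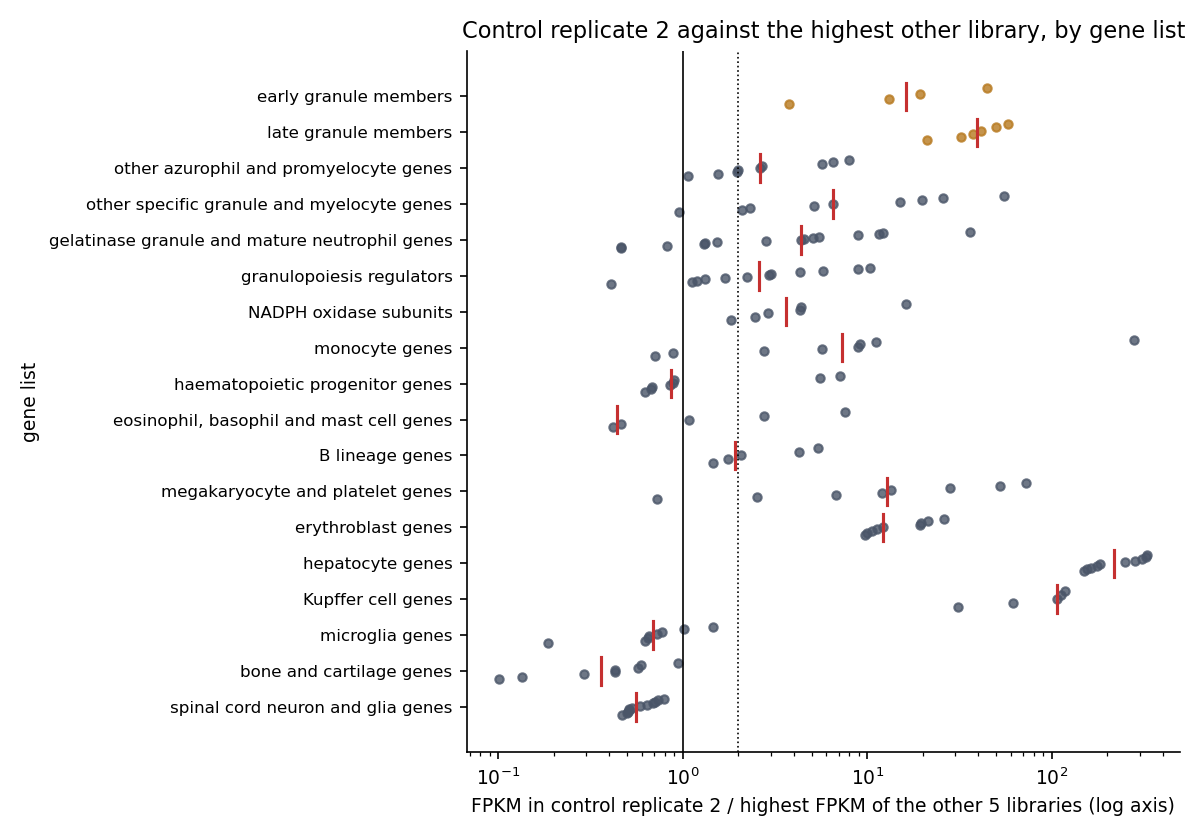
FPKM in control replicate 2 divided by the highest FPKM of the other 5 libraries, on a log axis, for each gene of each list (points) with the list median (red bar). Genes listed in no other library have no ratio, and genes not listed in control replicate 2 have a ratio of 0 and are not drawn but count in the median. The solid line marks 1 and the dotted line 2. The late granule genes have a median of 39.3, the hepatocyte genes 216.3 and the spinal cord neuron and glia genes 0.559.

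Genes of other cell types were also high in the same library, and their part in the granule gene levels was not tested. All 10 hepatocyte genes were more than 10 times the highest other library. Their sum was 29021 FPKM in control replicate 2 and between 47.3 and 103.0 FPKM elsewhere, and the most abundant, Alb, was at 15894 FPKM against 24.7 to 56.2. All 5 Kupffer cell genes, led by Marco at 12.3 FPKM, were more than 10 times the highest other library, with sums of 39.4 FPKM against 0.104 to 0.246. All 9 erythroblast genes analysed were more than 2 times the highest other library, with sums of 7150 FPKM against 423.9 to 725.6, mostly Hba-a1. Of 8 platelet genes, 7 were, among them Ppbp at 23.9 FPKM against 0.0648 to 0.457, but Gp1bb, the most abundant, was not. The median ratio to the highest other library was 16.2 for the early and 39.3 for the late granule genes, 12.1 for the erythroblast, 106.5 for the Kupffer cell and 216.3 for the hepatocyte genes, and 0.771 over all 17088 genes.

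The remaining lists of blood lineages and bone differed in level and direction. Of 8 haematopoietic progenitor genes, 2 were more than 2 times the highest other library, and the abundant Meis1 and Kit, which the spinal cord also expresses, were lower in control replicate 2, at 18.5 and 14.0 FPKM against 24.9 to 29.8 and 18.2 to 21.0 FPKM. The 8 B lineage genes summed to 3.56 FPKM in control replicate 2 against 0.332 to 0.643 elsewhere, led by Cd79b at 1.37 FPKM, with Dntt not listed. Control replicate 2 was highest for 7 of 8 of them, beside 23.8% of all genes, and more than 2 times the highest other library for 3 of the 6 with a ratio, beside 8.42%. The 10 eosinophil, basophil and mast cell genes summed to 2.04 FPKM against 0.221 to 1.20, with Mcpt4, Cma1 and Tpsb2 not listed in control replicate 2. It was highest for 5 of 10 of these and more than 2 times the highest other library for 2 of the 8 with a ratio. Of 8 monocyte genes, 6 were more than 2 times the highest other library. Among them F10 is made by hepatocytes, and Plac8 also stands on a neutrophil list. The most abundant, Vcan, was lower in control replicate 2, at 17.3 FPKM against 21.6 to 24.4. The 10 bone and cartilage genes summed to 7.04 FPKM in control replicate 2 and 6.77 to 11.0 elsewhere, and 0 of 10 were highest in it. Alpl, the most abundant, was at 3.71 FPKM against 3.41 to 6.24, Matn1 was not listed in control replicate 2, and Bglap was listed only in control replicate 3, at 0.167 FPKM.

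Markers of the labelled tissue were present in every library. All 12 spinal cord neuron and glia genes were lower in control replicate 2 than in the highest other library, with a median ratio of 0.559 and a sum of 1064 FPKM against 1344 to 1677. Snap25, a neuronal synaptic gene, was at 73.3 FPKM in control replicate 2 and between 123.5 and 144.3 elsewhere, and Tubb3, a neuronal tubulin, at 177.6 against 322.7 to 378.4 FPKM. Mbp, a myelin gene and the most abundant, was at 445.4 FPKM, within the range of 374.9 to 695.0 of the others. The 8 microglia genes summed to 79.0 FPKM in control replicate 2 against 79.8 to 86.1, and 0 of 8 were more than 2 times the highest other library.

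The genes whose profile over the 6 libraries was most like the early genes, by Euclidean distance between centred log2(FPKM + 1) values, were Cyp2d22, Acad11, Pik3c2g, Mgst2 and Tcf24, with distances of 0.185 to 0.242. For the late genes they were Lect2, Cyp2c40, Asgr1, Gbp11 and F5, with distances of 0.170 to 0.278. Lect2 was at 33.2 FPKM in control replicate 2 and at most 0.311 elsewhere, and Asgr1, a hepatocyte asialoglycoprotein receptor, at 38.3 and at most 0.707 FPKM. None of these 10 genes stands on the neutrophil lists. Over the 5 libraries without control replicate 2, the genes nearest to the late set were Ncoa4, Pcbd1, St18, Zfp661 and Cidea, with distances of 0.0345 to 0.0608. Of these, Pcbd1 was high in control replicate 2, at 37.2 FPKM against 5.15 to 7.79, while Zfp661 was at 2.94 against 2.25 to 3.28 FPKM.

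With all 6 libraries, every granule gene was lower in the SMA group, but this contrast contains the library that chose the genes and is given as a description. The log2 fold changes of SMA against control ran from -2.24 for S100a8 to -0.61 for Prtn3, with a median of -0.84 over the 4 early and -1.81 over the 6 late genes, beside 0.044 over all 17088 genes tested. All 10 genes passed the filter of a mean of 0.5 FPKM, Ctsg only narrowly with 0.507 FPKM. By limma, 0 of 10 reached an adjusted p under 0.05 and 0 of 10 an unadjusted p under 0.05, and every granule gene had an adjusted p of 0.683 with standard errors of 0.48 to 1.40. Over all genes, 0% were called at an adjusted p under 0.05, 5.79% at an unadjusted p under 0.05 and 0.17% at an unadjusted p under 0.05 with a fold over 2.

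Without control replicate 2, the groups were 2 control and 3 SMA libraries, and the granule genes were at low levels in both, at most 4.99 FPKM. Camp alone separated the groups: its SMA libraries, at 0.255, 0.517 and 0.449 FPKM, all lay below control replicates 1 and 3 at 1.24 and 0.866 FPKM. The other 9 genes overlapped. So 1 of 10 had all SMA libraries lower, beside 11.1% of 25081 genes over the same 5 libraries, a share near the background. For Camp, the log2 fold change was -0.54 (SE 0.17, n = 3 and 2, limma adjusted p = 0.366). The unadjusted limma p was 0.0134, and 0.0774 without control replicate 1. The mean level of Camp was 0.407 FPKM in SMA and 1.05 FPKM in the remaining controls, so it passed the filter of 0.5 FPKM only through the controls, and its p is no support for a difference. With a pseudocount of 0.1 its log2 fold change was -1.21, the unadjusted limma p was 0.0190 and the adjusted p was 0.410, so Camp then passed an unadjusted p under 0.05 with a fold over 2.

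Only Prtn3, Camp, S100a8 and S100a9 still averaged 0.5 FPKM or more in the 5 libraries, the filter for testing. None of these 4 was called by limma at an adjusted p under 0.05, beside 0.0121% of all 16574 genes, or, at the pseudocount of 1, at an unadjusted p under 0.05 with a fold over 2, beside 0.139%. An unadjusted p under 0.05 alone was reached by Camp and by 10.5% of all genes. S100a8 had a log2 fold change of -0.46 (SE 0.23, limma adjusted p = 0.534), with SMA replicate 3 inside the control range, and -0.21 without control replicate 1 or -0.71 without control replicate 3. S100a9 had -0.23 (SE 0.20, limma adjusted p = 0.724), with control replicate 3 close to the lowest SMA library. For S100a9 the sign depended on control replicate 1, without which the log2 fold change was 0.086. Prtn3 had -0.060 (SE 0.22, limma adjusted p = 0.946), with a spread among the SMA libraries wider than the difference, and the sign turned without control replicate 3 (0.042) and without SMA replicate 1 (0.14).

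**Figure D4:**
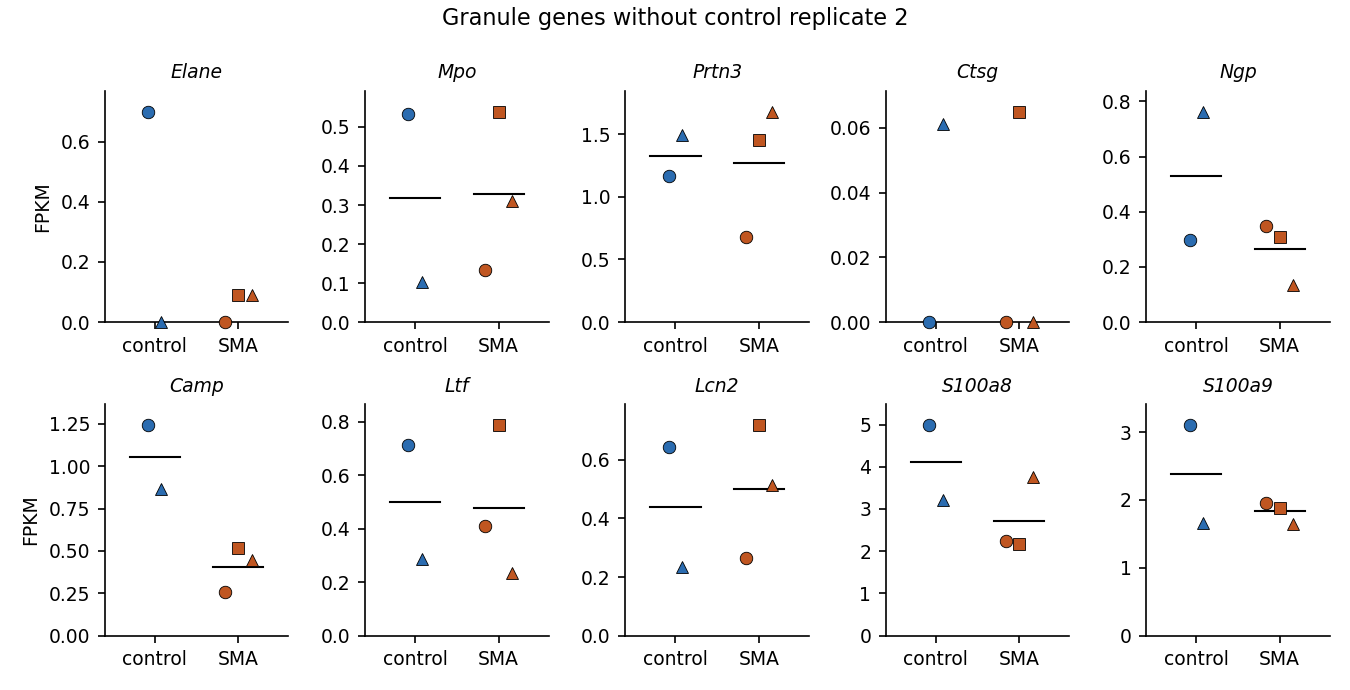
FPKM of each granule gene in the 5 libraries other than control replicate 2, control in blue and SMA in orange, with circles, squares and triangles for replicates 1, 2 and 3. Bars are group means, left out for Elane and Ctsg, which some libraries do not list. Camp is the gene whose SMA points, at most 0.517 FPKM, all lie below both control points.

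The remaining 6 genes were too low to pass the filter. Elane reached 0.700 FPKM in control replicate 1 and at most 0.0912 FPKM in the SMA libraries, and control replicate 3 did not list it. Mpo, Ltf and Lcn2 had nearly equal group means, of 0.318 and 0.328 FPKM for Mpo, 0.501 and 0.477 for Ltf, and 0.44 and 0.5 for Lcn2 (control, then SMA). Each of these had a high and a low library in both groups: control replicate 1 and SMA replicate 2 were the highest for all 3. Ngp was at 0.763 FPKM in control replicate 3 and between 0.134 and 0.349 FPKM in the other libraries. Fitted without any filter, the 10 genes had log2 fold changes of -0.54 to 0.062 with a median of -0.14, beside 0.012 over all 25081 genes, and the lowest limma adjusted p was 0.445, for Camp.

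Over these 5 libraries the late sum was lower in each SMA library than in either control, and the early sums overlapped. The late sum was 11.0 and 7.04 FPKM in control replicates 1 and 3 and 5.49, 6.39 and 6.74 FPKM in SMA replicates 1, 2 and 3, so the groups did not overlap, but the gap between 7.04 and 6.74 FPKM was smaller than the spread within either group. S100a8 and S100a9 carried most of it: without them the late sums were 2.90 and 2.15 FPKM in the controls and 1.28, 2.33 and 1.33 FPKM in the SMA libraries, which overlap. The early sum was 2.40 and 1.66 FPKM in the controls and 0.818, 2.14 and 2.08 FPKM in the SMA libraries. Control replicate 1 was the highest of the 5 libraries in both sums. It also had the highest erythroblast sum, at 725.6 FPKM, while its hepatocyte sum of 82.8 FPKM was below the 103.0 FPKM of SMA replicate 2, and the part of these cell types in the granule gene levels was not tested.

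The other neutrophil lists were also fitted without control replicate 2. Genes tested numbered 4 azurophil, 3 specific granule, 3 mature neutrophil, 8 regulator and 5 NADPH oxidase. Limma called 0 of these at an adjusted p under 0.05, beside 0.0121% of all 16574 genes. It called 1, Cebpb, at an unadjusted p under 0.05 with a fold over 2, beside 0.139%. At an unadjusted limma p under 0.05, which 10.5% of all genes tested reached, Plac8 of 4 azurophil genes, Pglyrp1 of 3 specific granule genes, 0 of 3 mature neutrophil genes and Cyba of 5 NADPH oxidase genes were lower in SMA. Pglyrp1 was at 4.58 and 4.91 FPKM in control replicates 1 and 3 and at 4.11, 3.67 and 2.96 FPKM in the SMA libraries, a log2 fold change of -0.33 (SE 0.14, limma adjusted p = 0.477). Plac8 was at 1.71 and 0.673 FPKM in these controls and at 0.636 and 0.349 FPKM in SMA replicates 1 and 2, and SMA replicate 3 did not list it, so Plac8 passed the filter only through the controls and its p is no support for a difference. The regulator list differed in direction for Cebpb, an inducible factor of many cell types. Cebpb was at 0.454 and 0.679 FPKM in control replicates 1 and 3 and at 2.20, 1.94 and 2.42 FPKM in the SMA libraries, a log2 fold change of 1.03 (SE 0.15, limma adjusted p = 0.176). Control replicate 2, at 2.70 FPKM, was above all of them, so over all 6 libraries the groups overlapped for Cebpb. Fitted without a filter, the median log2 fold change was -0.068 over 9 azurophil, 0.010 over 9 specific granule, 0.031 over 15 mature neutrophil, 0.012 over 12 regulator and -0.085 over 6 NADPH oxidase genes, beside 0.012 over all 25081 genes. The log2 fold change was below 0 for 8 of 9 azurophil, 4 of 9 specific granule, 5 of 15 mature neutrophil, 6 of 12 regulator and 4 of 6 NADPH oxidase genes, beside 46.2% of all genes.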

How the data were processed

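Spinal cord libraries, 3 SMA and 3 control, were grouped by their labels. The authors aligned strand-specific reads with HISAT2 and deposited FPKM from Cufflinks. The submitters' processing notes name mm10, and versions are not given in the sources used here. Spans in the files are counted from 0 at their start, and are given here counted from 1, and 99.3% of gene identifiers were found in GENCODE M21. A gene that a library does not list was set to 0 FPKM, which can be a failed estimate. From the most frequent ratio between values under 0.15 FPKM, relative depth was 1 to 1.16 times that of SMA replicate 1.

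Genes averaging 0.5 FPKM or more were tested in limma 3.58.1 (R 4.3.3), with a trended prior on log2(FPKM + 1), two-sided, with Benjamini-Hochberg adjustment over all genes, and the fit was tested on simulated data. Fold changes on this scale understate changes of low genes. The members and lists were chosen with earlier results of these data known. Named genes are the members, Smn1, up to 4 genes per list with the highest mean FPKM, markers not listed in a library, the 5 nearest profiles of each kind and genome neighbours. Klf5, Mmp25 and the genes sharing the span of Prtn3 were named after their values were seen. Ahsp, an erythroblast gene, was not analysed here, and single values of some list genes are not reported here. Alternatives were another pseudocount, other filters, median ratio scaling, quantile normalization, a replicate block and leaving out each library.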

Additional observations from a re-analysis of the deposited data

How the results depend on the processing

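Without control replicate 2, no granule gene that was tested reached an adjusted p under 0.05 in any alternative. S100a8 was lower in SMA in 11 of 11 alternatives and Camp in 10 of 10, with limma adjusted p for Camp from 0.213 to 0.768. A pseudocount of 0.1 took Camp past an unadjusted p under 0.05 with a fold over 2, and a filter at a mean of 1 FPKM removed it. S100a9 was lower in 10 of 11 and Prtn3 in 9 of 11. On leaving out a library, Prtn3 ranged from -0.19 to 0.14, S100a9 from -0.54 to 0.086 and S100a8 from -0.71 to -0.21 in log2 fold change, and the cause was not tested. Leaving out either remaining control leaves 1, which the fit assumes to vary like the SMA libraries. With all libraries the choice of genes sets the direction, so its stability says nothing.

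In control replicate 2, a pseudocount of 0.1 moved the early difference from 2.47 to 4.31, the late one from 4.81 to 5.89 and the late minus early one from 2.33 to 1.58, by its construction. Quantile normalization gave 2.46 for the last. Leaving Prtn3 out of the early genes, chosen after seeing the data, gave 2.73 for the early and 2.07 for the late minus early difference.

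Counts of genes depended on the settings. At an unadjusted p under 0.05 with a fold over 2, 17 genes were lower and 12 higher in SMA with all libraries, and 125 and 64 with a pseudocount of 0.1. Leaving out a library gave 4 (without SMA replicate 2) to 131 (without control replicate 3) lower and 12 to 28 higher. Without control replicate 2 the counts were 7 lower and 16 higher, 59 and 115 with a pseudocount of 0.1, and 7 to 35 and 22 to 56 on leaving out a library. Genes at an adjusted p under 0.05 numbered 0 with all libraries, and 0 to 2 on leaving out a library. Without control replicate 2 they numbered 2, then 1 with median ratio scaling, 0 with no filter, and 0 to 43 on leaving out a library (43 without control replicate 1). The causes were not tested.

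With the replicate number as a replicate block, the counts were 35 lower and 13 higher with all libraries, and 19 lower, 26 higher and 0 at an adjusted p under 0.05 without control replicate 2. Deviations of libraries sharing a number correlated at -0.037, 0.016 and 0.077, so the numbers were not taken to pair libraries, and not every library correlated best with its own number. FPKM carry no counts, so genes near 0 have no counting error here, and 6 of 10 granule genes were too low to test without control replicate 2.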
